A study of Homo sapiens with 4 samples.

Results

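Array signals were examined for 5 of the 851 human miRNAs with probes on an Agilent miRNA microarray hybridized with RNA from HepG2 cells. These were the hepatocyte-enriched hsa-miR-122 and hsa-miR-885-5p, both arms of the hairpin hosted by IGF2 (hsa-miR-483-3p and hsa-miR-483-5p), and hsa-miR-675, which is hosted by H19. They were taken by their names on the array, and each was followed through all 4 conditions whether or not it was detected. HepG2 is an established human liver tumour line grown in culture. Cells received 40 µM berberine chloride, a plant alkaloid dissolved in DMSO, or 0.08% DMSO alone as control, and were harvested after 2 h or 4 h. There was 1 array for each condition, all 4 on 1 slide, so the spread between cultures is unknown. The question was whether these miRNAs differed between berberine-treated and control cells, and which of them the array could measure in this line.

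MiRNAs are short RNAs cut from a hairpin precursor. Either arm of the hairpin can be loaded into an Argonaute protein, where the seed near the 5′ end pairs with target mRNAs and lowers their output. miR-122 is the hallmark miRNA of hepatocytes, with roles in lipid metabolism and in hepatitis C virus replication, and miR-885-5p is also enriched in liver. IGF2 encodes a fetal growth factor and H19 a long non-coding RNA. Both are imprinted genes of chromosome 11, expressed from opposite parental copies, and each carries a miRNA hairpin.

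The members whose mature sequences could be matched all had different seeds. Sequences of 3 of the 5 members were matched by name in a table from RefSeq (GRCh38.p14), and the arms of miR-483 are given by name only. The seed, bases 2 to 8, is in capitals and each sequence runs 5′ to 3′.

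hsa-miR-122 (now miR-122-5p): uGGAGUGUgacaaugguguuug

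hsa-miR-885-5p: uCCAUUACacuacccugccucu

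hsa-miR-675 (now miR-675-5p): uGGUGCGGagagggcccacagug

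MIR122 lies within the non-coding host gene MIR122HG, and its 5p arm is at chr18:58451088-58451109 on the plus strand. MIR885 lies within ATP2B2, a plasma membrane calcium pump gene, and its 5p arm is at chr3:10394531-10394552 on the minus strand. MIR675 lies within H19 and also within the annotated span of MRPL23, and its 5p arm is at chr11:1996800-1996822 on the minus strand. MIR483 lies within IGF2 and the INS-IGF2 readthrough gene. The other arms of these hairpins are shown because the array also held probes for them.

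hsa-miR-122* (now miR-122-3p): aACGCCAUuaucacacuaaaua

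hsa-miR-885-3p: aGGCAGCGggguguaguggaua

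hsa-miR-675* (now miR-675-3p): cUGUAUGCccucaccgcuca

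The 6 sequences carried 6 different seeds. Among the 2370 mature human names of the table, only hsa-miR-4466 shared a seed with any of them, that of miR-675-5p.

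Of the 5 members, 4 were detected on all 4 arrays and hsa-miR-675 on none. Feature Extraction, the scanner software, calls a miRNA detected where at least 1 of its probes exceeds 3 times that probe's own error. By this flag 197 of the 851 human miRNAs, or 23.1%, were detected on all 4 arrays and 599 on none. The arrays differed in brightness. The 75th percentile of signal over those 197 miRNAs was 243 on the control 2 h array, 169 on the berberine 2 h array, 225 on the control 4 h array and 297 on the berberine 4 h array. The number of human miRNAs detected was 235, 199, 226 and 242 in the same order, so the berberine 2 h array was the dimmest and detected the fewest. In bulk RNA of this kind, fewer cells carrying a miRNA and less of it per cell cannot be told apart.

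In the following values, ± is the error that Feature Extraction gives for a total signal on a single array, and not a spread between replicates. The total signal of hsa-miR-122 was 31.5 ± 2.77 in control and 22.4 ± 2.76 in berberine-treated cells at 2 h. At 4 h it was 30.1 ± 3.02 in control and 39.9 ± 3.32 in berberine-treated cells. The hallmark hepatocyte miRNA was therefore measured on every array, at 8.09 to 12.0 times its error, and 62 of its 64 spots were well above background. The total signal of hsa-miR-885-5p was 41.7 ± 3.41 in control and 28.5 ± 3.03 in treated cells at 2 h, and 36.3 ± 3.34 and 58.0 ± 4.50 at 4 h. It too was lowest on the berberine 2 h array and highest on the berberine 4 h array, with 63 of 64 spots well above background.

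The arms of the IGF2-hosted hairpin were both measured. hsa-miR-483-3p had total signals of 282 ± 24.2 in control and 233 ± 19.9 in berberine-treated cells at 2 h, and of 239 ± 20.4 and 355 ± 30.0 at 4 h. hsa-miR-483-5p had total signals of 99.7 ± 7.28 and 70.8 ± 5.53 at 2 h, and of 81.9 ± 6.20 and 123 ± 8.94 at 4 h. All 64 spots of each arm were well above background. Both arms followed the order already seen for the liver miRNAs, with the berberine 2 h array lowest and the berberine 4 h array highest. The 75th percentiles of the arrays were lowest and highest on the same arrays.

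**Figure D1:**
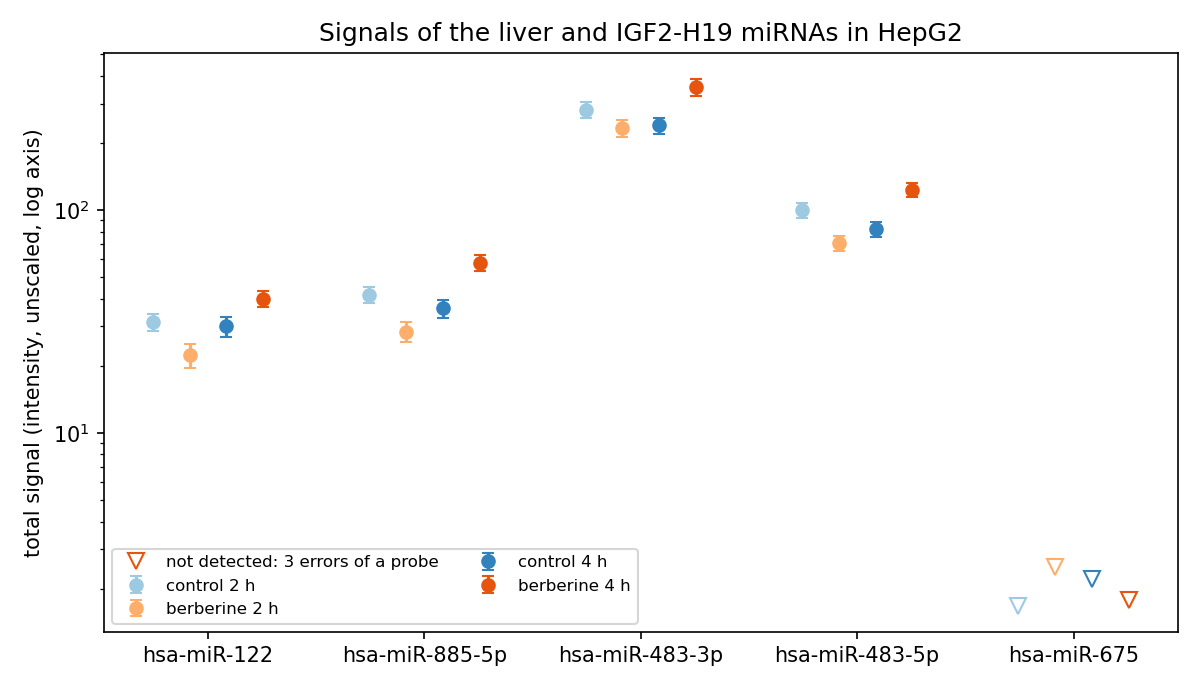
Total signal (intensity, not scaled between arrays, log axis) of the 5 miRNAs on the 4 arrays, as points with the Feature Extraction error as bars. Open triangles give 3 times the largest probe error for hsa-miR-675, which was not detected on any array, and the 4 detected miRNAs are lowest on the berberine 2 h array and highest on the berberine 4 h array.

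For hsa-miR-675, the miRNA that H19 carries, no array gave a detected signal. Its 4 probes had signals between -1.29 and 2.08 over the 4 arrays, while a signal above 1.68 to 2.51, depending on the array, would have been called detected. The nearest approach was on the berberine 2 h array, where probe 2 had a signal of 2.08, 2.49 times its error. Of its 64 spots, 1 was well above background, on that same array. The other arms hsa-miR-122*, hsa-miR-885-3p and hsa-miR-675* were not detected on any array either. For the hairpins of miR-122 and miR-885, the array thus measured the 5p arm and not the 3p arm, whereas for miR-483 it measured both. This is a statement about detection at the sensitivity of these probes, and no ratio was formed for an undetected miRNA.

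To compare arrays, each log2 total signal was set relative to the 75th percentile that the 197 always-detected miRNAs had on its array. At 2 h, the log2 ratio of berberine over control was 0.03 (SE 0.22) for hsa-miR-122, -0.03 (SE 0.19) for hsa-miR-885-5p, 0.25 (SE 0.17) for hsa-miR-483-3p and 0.03 (SE 0.15) for hsa-miR-483-5p. These standard errors come from the array errors alone. The directions depended on the processing: without scaling all 4 ratios were below 0 (-0.55 to -0.28), normexp put hsa-miR-885-5p at 0.25, and quantile normalization took hsa-miR-483-3p to 0.022. The percentile over all human miRNAs, which fell on the value for non-detection on the berberine 2 h array, put all 4 past 2-fold (5.08 to 5.36), like all 197 miRNAs compared. With the main scaling, hsa-miR-122 was at a fold of 1.02, with a 95% range from the array errors of 0.760 to 1.38. hsa-miR-483-3p was at 1.19, with a range of 0.937 to 1.51. With that scaling no member passed the 2-fold threshold of the study's methods, against 1.02% of the 197 miRNAs compared. None had a 95% range that left out no change, against 9.14%. The median of the 4 members was 0.03 and that of all miRNAs compared was -0.02. hsa-miR-483-3p ranked 30 from the top of 197, and the other 3 ranked 66, 67 and 105.

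At 4 h, the log2 ratio was 0.01 (SE 0.19) for hsa-miR-122, 0.28 (SE 0.17) for hsa-miR-885-5p, 0.17 (SE 0.17) for hsa-miR-483-3p and 0.19 (SE 0.15) for hsa-miR-483-5p. The corresponding folds were 1.01 (range 0.779 to 1.30), 1.21 (0.957 to 1.54), 1.13 (0.890 to 1.43) and 1.14 (0.928 to 1.40). Again no member was past 2-fold, against 0.917% of 218 miRNAs, or had a 95% range without 0, against 11.5%. With this scaling all 4 members had ratios above 0, but hsa-miR-122 was below 0 when scaled to the median (-0.16), after quantile normalization (-0.11) and by its brightest probe (-0.14), 3 members were below 0 after normexp background correction (-0.28 to -0.069), and all 4 with the percentile over all human miRNAs (-0.40 to -0.13). Most miRNAs also had ratios above 0 at this time, since the median over all 218 was 0.11 and that of the members 0.18. Relative to that median, hsa-miR-122 was on the lower side, at rank 151 of 218, and hsa-miR-885-5p on the higher, at rank 42. With the main scaling the upper bounds of the ranges stayed below 2-fold at both times, while changes of up to 1.54-fold lie within them.

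The control arrays, which hold no berberine, gave one more comparison. From 2 h to 4 h the log2 ratio was 0.05 (SE 0.19) for hsa-miR-122, -0.09 (SE 0.18) for hsa-miR-885-5p, -0.13 (SE 0.17) for hsa-miR-483-3p and -0.17 (SE 0.15) for hsa-miR-483-5p. The median of the members was -0.11 and that of all 219 miRNAs compared was -0.08. No member was past 2-fold, against 2.28%, or had a 95% range without 0, against 6.85%. The 2.28% stands for 5 miRNAs, a count that was 0 with the mean of all probes. These directions too depended on the scaling, since with scaling to the median all 4 ratios were above 0 (0.26, 0.12, 0.086 and 0.039 in the same order of members). Time and array cannot be told apart here.

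**Figure D2:**
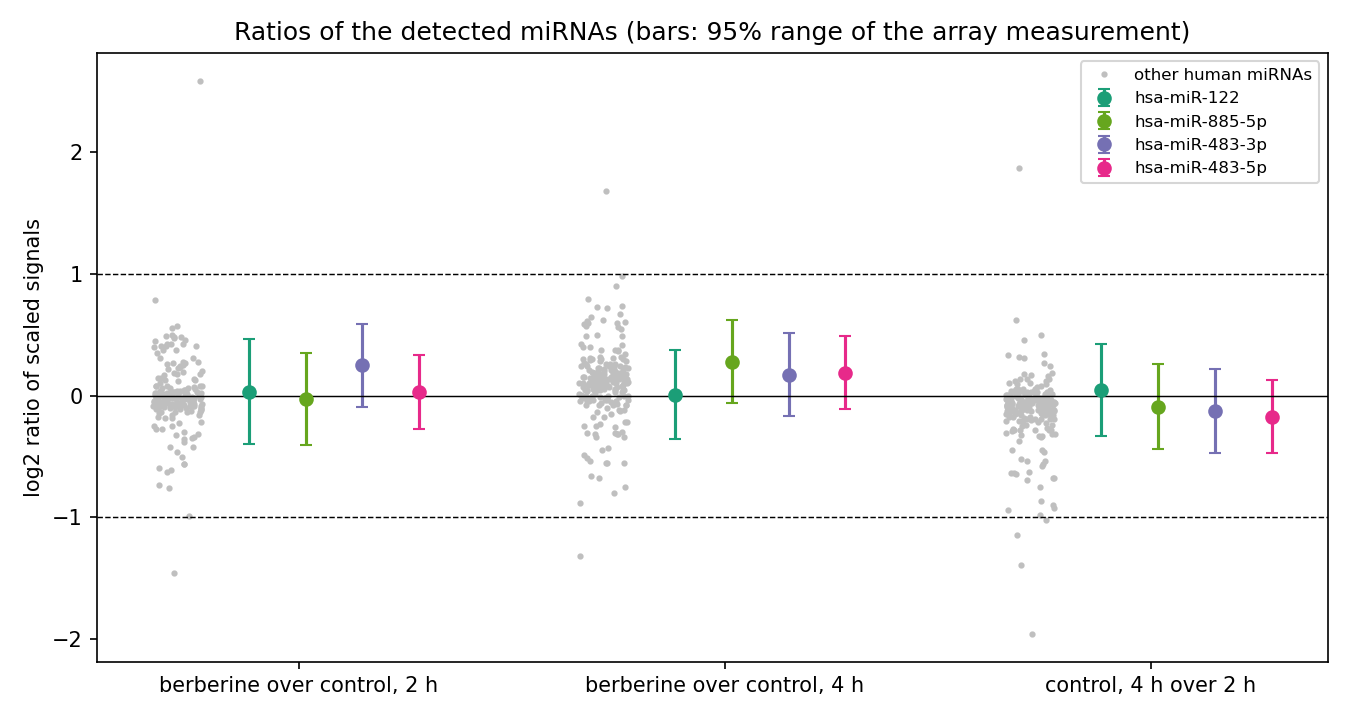
Log2 ratio of scaled signals for the 4 detected miRNAs in the 3 comparisons (points, with the 95% range of the array measurement as bars) beside the other human miRNAs compared (grey dots). Dashed lines mark 2-fold. Every bar of the 4 miRNAs crosses 0 and none reaches a dashed line.

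The members were also set against each other, as differences between their log2 ratios. Over the 6 pairs, the largest difference was 0.28 at 2 h, between hsa-miR-885-5p and hsa-miR-483-3p, and 0.27 at 4 h, between hsa-miR-122 and hsa-miR-885-5p. In the control comparison it was 0.22. The 95% range of each of the 6 held 0 in all 3 comparisons. The arms of the miR-483 hairpin differed by 0.22 at 2 h (3p minus 5p, SE 0.23, range -0.24 to 0.67) and by -0.02 at 4 h (SE 0.23, range -0.47 to 0.43). A difference between the arms of up to 0.67 on the log2 scale therefore lies within the measurement at 2 h.

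Over the 4 arrays, the scaled level of hsa-miR-122 ran from -2.95 to -2.90, a span of 0.05 on the log2 scale. This was rank 3 from the narrowest of 197 miRNAs, whose median span was 0.27. The span is smaller than the SE of its ratios between arrays, 0.19 to 0.22, so the array errors do not resolve this rank. The spans of hsa-miR-483-5p, hsa-miR-885-5p and hsa-miR-483-3p were 0.21, 0.28 and 0.38. The order depended on the scaling. With the median of each array in place of the 75th percentile, the span of hsa-miR-122 was 0.26, at rank 88, and hsa-miR-483-5p took rank 3 with 0.06.

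Each of the 4 detected members had 2 probes of 8 spots per array, which gave a view of the measurement within an array. After spots marked as outliers were left out, the coefficient of variation among spots of a probe had a median of 5.80% and ran from 1.05% to 18.0% over 32 sets of spots. At 2 h the scaled spots of treated and control arrays did not overlap for 2 of the 8 member probes, against 15.3% of 439 probes. Both were probes of hsa-miR-483-3p, higher with berberine, with median spot ratios of 0.31 and 0.23 on the log2 scale. At 4 h this held for 5 of 8 member probes, against 27.8%, all higher with berberine. They were both probes of hsa-miR-483-3p (0.21 and 0.15), both of hsa-miR-483-5p (0.20 and 0.24) and probe 2 of hsa-miR-885-5p (0.34). Both probes of hsa-miR-122 overlapped at both times. Between the control arrays 1 member probe was apart, against 14.8%, probe 1 of hsa-miR-483-5p, which was lower at 4 h. The count was 0 with outlier spots kept, against 7.74%, with median scaling 2, against 22.3%, and without scaling 3, against 34.6%. Spots of 1 array share its RNA and are not replicates of the treatment.

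**Figure D3:**
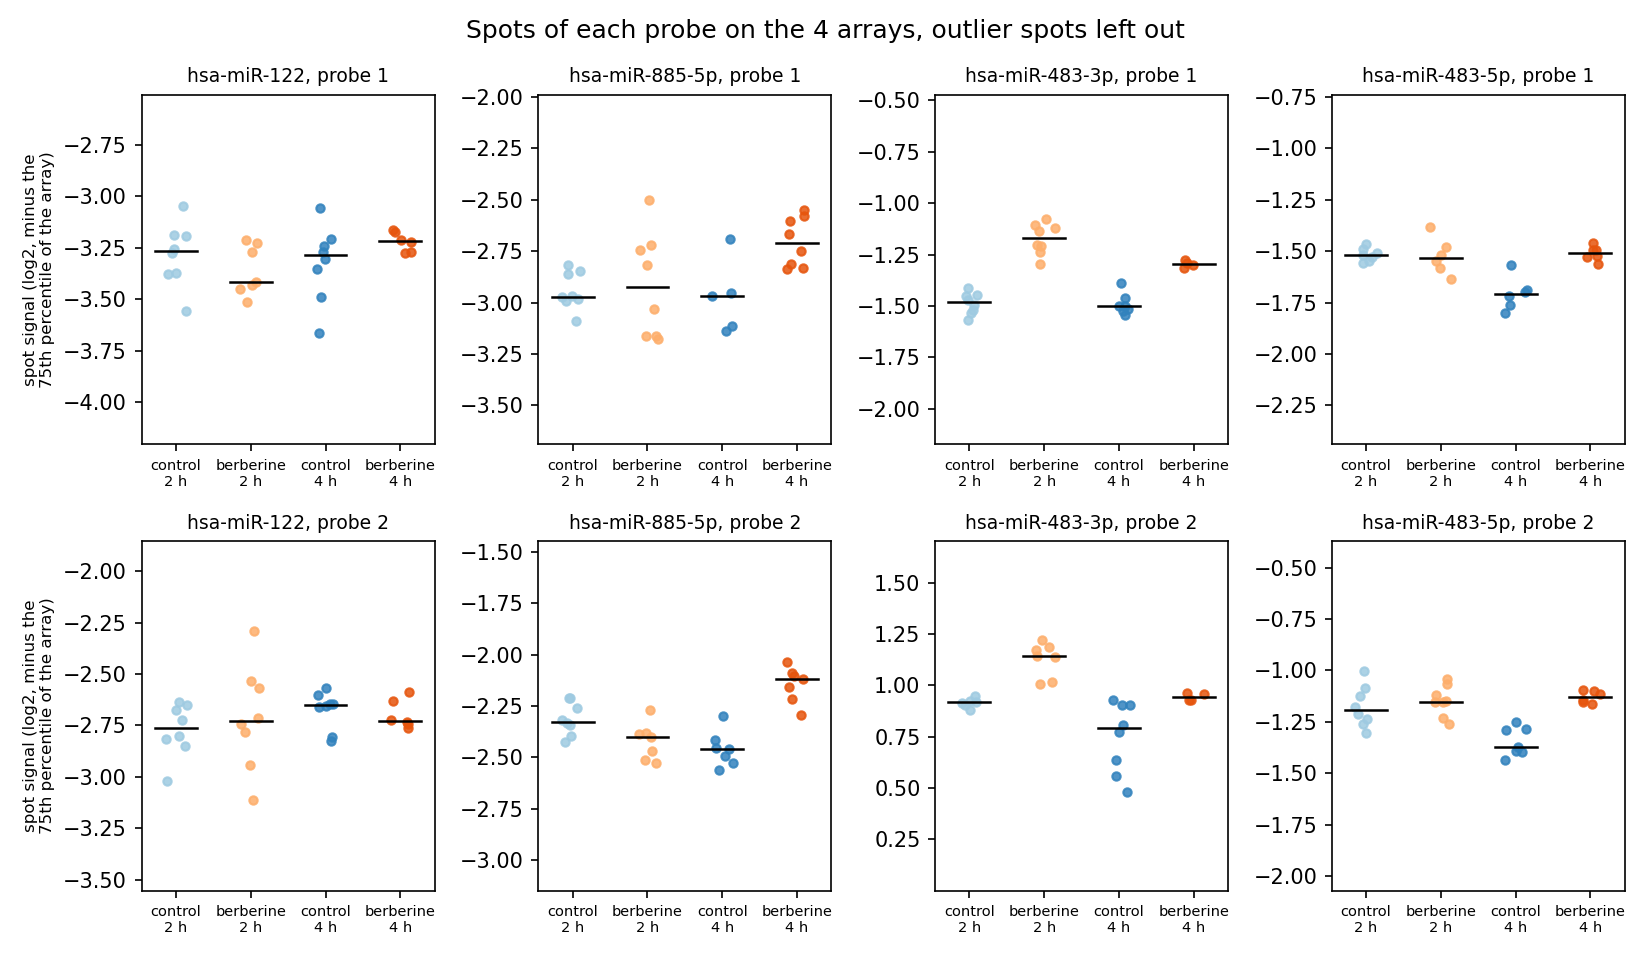
Scaled log2 signal of every spot, outlier spots left out, for the 2 probes of each detected miRNA on the 4 arrays. Black lines are medians and each panel spans 1.7 log2 units around its own centre. For hsa-miR-483-3p the berberine spots lie above the control spots of the same time in both probes, at 4 h only narrowly in probe 2. For hsa-miR-122 the berberine and control spots overlap.

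hsa-miR-483-3p was 1 of 2 miRNAs of 197 whose probes all lay apart and higher with berberine at both times. The other was hsa-miR-21*, the 3p arm of miR-21, named here after its values were seen. This depended on the scaling and on the outlier spots. With the median of each array as the scale, the member probes apart numbered 2 at 2 h, against 16.2% of the 439 probes, and 0 at 4 h, against 16.9%, and hsa-miR-483-3p was no longer apart at both times. Without scaling, 6 member probes were apart and lower with berberine at 2 h, against 64.5% of all probes, and 8 were apart and higher at 4 h, against 64.0%. With outlier spots kept, 1 probe of hsa-miR-483-3p was still apart at each time and no other member probe was, against 10.9% of all probes at 2 h and 13.7% at 4 h, which is near 1 of 8. For each of its 2 probes, 4 of 8 spots on the berberine 4 h array carried the outlier mark. At 4 h probe 2 of hsa-miR-483-3p was apart by a narrow margin. Its lowest kept berberine spot was at 0.9265 and its highest control spot at 0.9260 in scaled log2 signal.

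The main test took both times together in limma, with time as a covariate and 1 residual degree of freedom. limma also borrowed the variance across the 197 miRNAs, with a weight of 54.2 further degrees of freedom. Each SE from this fit is thus mostly the shared variance and not the spread of the single miRNA. The log2 ratio of berberine over control was 0.02 (SE 0.21) for hsa-miR-122, 0.13 (SE 0.21) for hsa-miR-885-5p, 0.21 (SE 0.21) for hsa-miR-483-3p and 0.11 (SE 0.21) for hsa-miR-483-5p. The limma adjusted p was 0.997 for each, over 197 miRNAs. Their median was 0.12 and that of all miRNAs tested was 0.06. None was called, against 0.508% of those tested, which is 1 miRNA, hsa-miR-21*. In 10 of 15 alternative limma fits no miRNA was called, among them those with median scaling, with quantile normalization and without the time point. There the weight of the borrowed variance was only 1.58, 0.655 and 2.40 degrees of freedom, in that order. Without scaling, where none was called either, the shared variance was used alone. The ratio of hsa-miR-122 was above 0 in 9 of 14 alternative limma fits, and at -0.072 with the median. That of hsa-miR-885-5p was above 0 in 13 of 14, and those of both miR-483 arms in all 15. Not all of these fits could differ in direction. Dropping the time point, a trend in the variance or keeping the brighter miRNAs cannot change a ratio in this design. The mean of all probes and the same probes summed gave nearly the main ratios. At an unadjusted p under 0.05 the main limma fit gave 9 miRNAs and no member, the lowest member p being 0.311 for hsa-miR-483-3p. With so few arrays a p of this size does not show that the levels were the same.

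The miRNAs whose 4 scaled values ran most like those of a member were found from the root mean square difference of values centred on their own mean, over 4 arrays and 196 other miRNAs. For hsa-miR-122 they were hsa-let-7a (0.02) and hsa-miR-135b (0.03). For hsa-miR-885-5p they were hsa-miR-151-5p (0.0068) and hsa-miR-340 (0.02). For hsa-miR-483-3p they were hsa-miR-574-3p (0.03) and hsa-miR-193b (0.05), and for hsa-miR-483-5p hsa-miR-130a (0.02) and hsa-miR-532-5p (0.03). The median difference over all miRNAs was between 0.10 and 0.16 for the 4 members. None of the 4 had another member among its nearest 2, and 4 points of a profile are few.

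The lists set beside the members place them in this cell line. Both hepatocyte markers on the array, hsa-miR-122 and hsa-miR-885-5p, were detected on all 4 arrays, as were 23.1% of all 851 human miRNAs. So were all 7 miRNAs of a list known to be abundant in liver, whose median log2 ratio was -0.06 at 2 h and 0.16 at 4 h, beside 0.03 and 0.18 for the members. Among them hsa-miR-192, hsa-miR-194 and hsa-miR-215 had log2 ratios of -0.10, -0.05 and -0.02 at 2 h and of 0.15, 0.32 and 0.16 at 4 h. None of the 7 was past 2-fold, and only hsa-miR-194 at 4 h had a 95% range without 0. Over all miRNAs compared, these shares were 1.02% and 9.14% at 2 h and 0.917% and 11.5% at 4 h.

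The miRNAs of other imprinted loci were set beside those of IGF2, both detected, and of H19, not detected. Of 15 on the array, 13 were detected on none of the arrays, as were 70.4% of all human miRNAs, and 1, hsa-miR-335 from the MEST locus, on all 4. hsa-miR-335 had signals of 37.0 ± 3.66 and 20.7 ± 2.60 at 2 h and of 30.0 ± 3.36 and 52.0 ± 5.00 at 4 h, control first. Its log2 ratios of -0.31 (SE 0.23) and 0.40 (SE 0.21) both had 95% ranges that held 0. The signal of hsa-miR-335 rests on 1 probe on the berberine 2 h and control 4 h arrays, and on 2 probes on the others. Both ratios therefore compare unlike probe sets, and the part of this in their sizes was not tested. Its brighter probe alone had signals of 32.7 and 20.7 at 2 h and of 30.0 and 46.6 at 4 h, control first. hsa-miR-134, from the imprinted cluster of chromosome 14, was detected on the berberine 4 h array alone, at 9.78 ± 1.82. The difference in detection between the lists was not tested.

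Markers of other cell types were undetected about as often as human miRNAs in general. Of 17, from muscle, blood cells, neurons, endothelium, stroma and smooth muscle, and endocrine pancreas, 13 were detected on none of the arrays, among them all 4 of muscle, all 3 of neurons, both of endothelium and hsa-miR-375 of the endocrine pancreas, beside 70.4% of all 851. hsa-miR-145, known from smooth muscle and stroma, was detected on all 4 arrays, with signals of 30.8, 19.7, 29.9 and 42.3 in the order control and berberine at 2 h, then control and berberine at 4 h. Its signal rests on 1 probe on the berberine 2 h array and on 2 probes on the others. These values, and the summed signal given below, therefore compare unlike probe sets. Another 3, hsa-miR-142-3p and hsa-miR-451 of blood cells and hsa-miR-143, were detected on the berberine 4 h array alone, at 6.13, 5.31 and 3.95. The markers detected numbered 1, 1, 1 and 4 on the 4 arrays in that order, and their summed signal was 30.8, 19.7, 29.9 and 57.7. The extra detections fell on the brightest array, and their part in the member values was not tested.

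**Figure D4:**
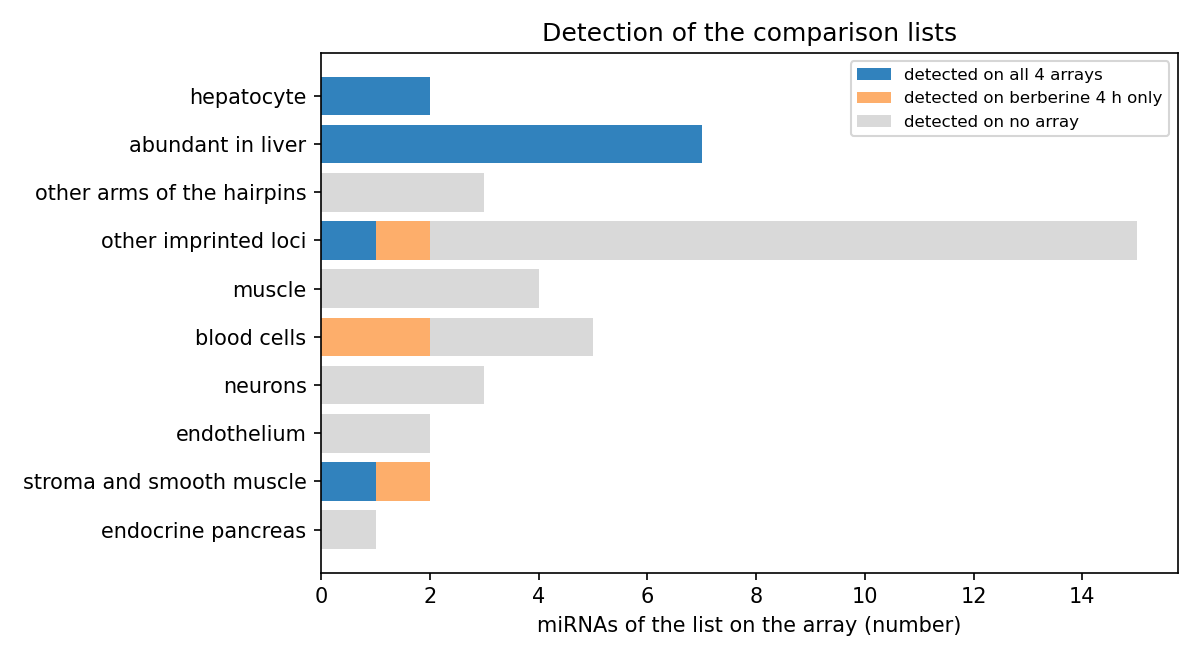
Number of miRNAs of each comparison list that were detected on all 4 arrays, on the berberine 4 h array alone, or on none (stacked bars). The hepatocyte and liver lists are detected throughout, and 13 of the 15 miRNAs of other imprinted loci on no array.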

How the data were processed

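RNA from HepG2 cells was profiled on 4 arrays of 1 slide, with 1 array per condition. The authors deposited Feature Extraction 10.7.3.1 output, in which each spot, probe and miRNA has a background-subtracted intensity, not scaled between arrays, and an undetected miRNA is written as 0.1. Their table of ratios between conditions holds the study's own comparisons and was not used. Conditions came from the sample titles. The labels print the dose without its micro sign, and the design text gives it.

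Log2 total signals were centred on the 75th percentile that the 197 always-detected human miRNAs had on each array, and ratios were formed for miRNAs detected on both arrays. Errors were propagated from those of Feature Extraction. The number of arrays limits the precision. limma 3.58.1 (R 4.3.3) with Benjamini-Hochberg adjustment and a threshold of 0.05 was used for the test. Python 3.11.15 was used for the rest.

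Members, comparison lists and tests were chosen with earlier results of these data known. Named miRNAs are the 5 members, the other arms of their hairpins, the first 3 detected of each list, and the 2 nearest profiles of each detected member. Others are named where a count is small, after their values were seen. hsa-miR-675b was not analysed here. Alternatives covered scaling, probe summary, background, detection rule and arrays left out. For other scalings and outlier spots of the spot comparison and the spans, they were chosen after seeing the data.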

Additional observations from a re-analysis of the deposited data

Results flagged for a closer look

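hsa-miR-885-5p had berberine ratios of opposite sign at the 2 times, -0.03 (SE 0.19) at 2 h and 0.28 (SE 0.17) at 4 h on the log2 scale. The later ratio minus the earlier was 0.31 (SE 0.26), whose 95% range holds 0, and with 1 array per condition the difference was not tested. The order turned under normexp background correction, with 0.25 at 2 h and -0.10 at 4 h. The other 3 detected members had ratios of the same sign at both times with the 75th percentile. That too depended on the processing: hsa-miR-122 had opposite signs when scaled to the median (0.019 and -0.16), after quantile normalization (0.048 and -0.11), by its brightest probe (0.09 and -0.14) and after normexp (0.29 and -0.28), hsa-miR-483-5p after normexp (0.14 and -0.069), and all 4 members without scaling or with the percentile over all human miRNAs.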

How the results depend on the processing

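Over 31 results and 20 settings there were 233 alternative values, of which 154 stayed within the error, the 1.5-fold margin of a count or, for limma, the same direction and side of the threshold, and 73 moved further. The limma ratio turned direction in 6 of 58 values. Of the 104 values of ratios with no test, 24 turned sign, and none of these ratios had been called. Some settings could not move a member ratio, yet their values are counted in the 154, the 58 and the 104. Keeping only miRNAs detected on all 4 arrays leaves a ratio with no test as it was. Dropping the time point, a trend in the variance or keeping the brighter miRNAs does so for a limma ratio. The members detected on each array were 4 under all 3 other detection rules. No limma alternative brought a member below an adjusted p of 0.05 (range 0.444 to 1). Members are given below in the order hsa-miR-122, hsa-miR-885-5p, hsa-miR-483-3p and hsa-miR-483-5p.

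Without scaling, the log2 ratios were -0.49, -0.55, -0.28 and -0.49 at 2 h and 0.41, 0.68, 0.57 and 0.59 at 4 h, with a median over all miRNAs of -0.55 and 0.51, and 11, 12 and 9 miRNAs past 2-fold at 2 h, at 4 h and between the control arrays, in place of 2, 2 and 5. The 75th percentile over all human miRNAs was the placeholder for non-detection in the berberine 2 h data, so that it gave 5.14, 5.08, 5.36 and 5.14 at 2 h, with all 197 miRNAs past 2-fold. At 4 h it gave -0.40, -0.13, -0.23 and -0.22 with 7 past 2-fold, and between control arrays 0.55, 0.41, 0.38 and 0.33 with 3. Scaling to the median moved the control ratios to 0.26, 0.12, 0.086 and 0.039 and that of hsa-miR-483-5p at 4 h to 0.018, with 3 past 2-fold between control arrays. Quantile normalization moved hsa-miR-483-3p at 2 h to 0.022 and hsa-miR-885-5p at 4 h to 0.098, with 3 past 2-fold between control arrays. Background correction by normexp with an offset of 50 moved hsa-miR-122 and hsa-miR-885-5p to 0.29 and 0.25 at 2 h, hsa-miR-122, hsa-miR-885-5p and hsa-miR-483-5p to -0.28, -0.10 and -0.069 at 4 h and hsa-miR-483-5p to 0.018 between control arrays, with 1, 0 and 0 past 2-fold. The brightest probe gave 4, 5 and 1 past 2-fold and the mean of all probes 1 at 2 h and 0 between control arrays. Summing the same probes on all arrays also gave 0 between control arrays.

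In limma, hsa-miR-122 turned to -0.042 without scaling, -0.072 with the median, -0.029 with quantile normalization and -0.026 with the brightest probe. hsa-miR-885-5p turned to -0.034 with quantile normalization. The percentile over all human miRNAs moved the member ratios to 2.37, 2.48, 2.56 and 2.46 (SE 2.71 for each). With 1 array left out, and the time point with it, hsa-miR-122 ran from -0.0019 (without control 2 h) to 0.04, hsa-miR-885-5p from 0.02 to 0.23, hsa-miR-483-3p from 0.11 to 0.31 and hsa-miR-483-5p from 0.02 to 0.20. The lone array of an arm was then assumed to vary like the others. The number of miRNAs called was 0 without scaling, with the median, with the percentile over all human miRNAs, with quantile normalization, with the brightest probe, among the brighter miRNAs and without the time point, 2 with the mean of all probes, and 0 to 1 with 1 array left out (0 without control 2 h, berberine 2 h or control 4 h, and 1 without berberine 4 h). The cause was not tested.

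Every label carries replicate number 1, so these numbers pair no arrays. The time point pairs them, and it is in the limma model. No member was detected on only some arrays, so the bound for a one-sided detection gave no value, and normexp used median spot signals, as the mean is not among the columns used here. The spread between cultures is not known, and levels below the 3-error limit, as for hsa-miR-675, cannot be ordered.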

Other observations

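The few miRNAs behind the 2-fold counts, named after their values were seen, were not members. At 2 h they were hsa-miR-21* with a log2 ratio of 2.59 (SE 0.18) and hsa-miR-431* with -1.45 (SE 0.49). At 4 h they were hsa-miR-21* with 1.68 (SE 0.20) and hsa-miR-194*, the passenger arm of a liver-abundant miRNA, with -1.32 (SE 0.28). Between the control arrays they were hsa-miR-29b-1* with 1.87 (SE 0.49) and, lower at 4 h, hsa-let-7b*, hsa-miR-33b*, hsa-miR-1288 and hsa-miR-212, with -1.96 to -1.02. With an identical probe set summed for every array, 0 miRNAs were past 2-fold in this comparison. That setting left 193 of the 197 miRNAs in limma, so some of these 5 may have had no value under it. The mean of all probes, which kept all 197 in limma, also put 0 past 2-fold in this comparison. The brightest probe put 1 past it. The main total signal sums only the probes that exceed 3 times their error on an array, and its part in these counts was not tested. All the ratios given here are of single arrays.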
